A study of Mus musculus with 4 samples.

Results

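The general transcription factor TFIID was examined in F123-ESCs through 10 of its subunit genes, Taf4b, Taf4, Tbp, Taf2, Taf3, Taf5, Taf6, Taf7, Taf8 and Taf10, chosen by their symbols among the 24026 genes of the RNAseq table. All 10 were found. F123-ESCs are a male mouse embryonic stem cell line from a cross of an S129/Jae mother and a CAST father, so each autosomal gene has an S129 and a CAST allele that SNPs tell apart. The cells were untreated, had been grown on feeder fibroblasts and then without them for at least 2 passages, and were harvested after about 48 h. PolyA RNA of 4 libraries, replicates 1 to 4, was sequenced. All libraries form 1 group of 1 cell line, so the comparisons made are between genes, between the alleles within a library and between libraries. Nothing says that the libraries came from separate cultures, and p-values measure only the spread between these samples, which may be technical.

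TFIID is the complex that recognises core promoters and seeds the assembly of the RNA polymerase II pre-initiation complex. TBP, its DNA-binding subunit, bends the DNA at the TATA box. TAF1 and TAF2 bind promoter DNA downstream of it, and TAF3 reads a methylated lysine of histone H3. TAF4, TAF5, TAF6, TAF9 and TAF12 form the core of the complex from histone folds and WD40 repeats. TAF8 and TAF10 are a histone-fold pair that joins the growing complex together with TAF2, and TAF7 binds TAF1 and restrains its activity. TAF4B is a paralogue of TAF4 that takes its place in the complex and is best known for its role in the germ cells of the ovary and testis.

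The values are RPKM per allele, reads per kilobase, scaled to the reads assigned to that allele, and the level of a gene is the mean of both alleles. Reads assigned to an allele came to between 16716721 and 28772351 per column, with the fewest in replicate 4. All 10 pluripotency markers examined were at 29.5 RPKM or above (Pou5f1, the lowest), and the summed level of the list ranged from 8391 to 9934 RPKM over the libraries. Of 9 feeder fibroblast markers 6 reached 1 RPKM, led by Col1a2 at 166 RPKM, with summed levels of 181 to 227 RPKM and Lum at 0.046 RPKM. Col1a2 alone made up most of each of these sums. Of 7 primitive endoderm markers 4 reached 1 RPKM, led by Dab2 at 44.2 RPKM (summed 46.9 to 53.9), and of 9 germ cell markers 7 did, led by Dazl at 53.0 RPKM (summed 102 to 124). Marker levels are as deposited and depend on the gene length in the RPKM, which is not given for them here. The part of cells other than ESCs in the levels of the TFIID genes was not tested. In bulk RNA, fewer cells of a type and less RNA per cell cannot be told apart.

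Taf4b (ENSMUSG00000054321; mm10 chromosome 18, 14783245 to 14900359, plus strand) was expressed from both alleles in all libraries. On the S129 allele it had 5.35, 5.95, 5.87 and 4.71 RPKM in replicates 1 to 4, and on the CAST allele 6.69, 7.68, 7.14 and 6.33 RPKM. The allele groups did not overlap, and every CAST value lay above every S129 value. The mean level was 6.21 ± 0.57 RPKM (SD, n = 4), above that of 69.4% of all genes in the table. Between 422 and 974 reads stood behind each value, so that even the lowest, S129 in replicate 4, had an exact 95% Poisson interval of 4.27 to 5.18 RPKM. Such intervals cover counting error only. The SD over libraries was 0.13 on the log2 scale, where counting alone gives 0.04, and the median SD was 0.13 both over the 10 subunit genes and over the 11946 genes of at least 1 RPKM. The values rest on reads over a SNP, and levels of different genes depend also on how many SNPs each transcript holds.

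Taf4 (ENSMUSG00000039117; chromosome 2, 179912152 to 179976646, minus strand), the paralogue, had 9.36, 11.2, 13.0 and 12.5 RPKM on the S129 allele and 9.24, 11.8, 12.1 and 7.79 RPKM on the CAST allele. The alleles of Taf4 overlapped, and the CAST allele of replicate 4, with 88 reads, was the lowest value (95% interval 6.25 to 9.59 RPKM). Its mean level was 10.9 ± 1.5 RPKM (SD, n = 4). As deposited, Taf4 lay above Taf4b in 4 of 4 libraries, with Taf4b at 0.517 to 0.647 of Taf4 and the difference Taf4b minus Taf4 at -0.79 ± 0.14 in log2(RPKM+0.1) (SD, n = 4). An exact sign-flip test, two-sided, gave p = 0.125, below which 4 libraries cannot go.

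This order turned around with the gene length in the RPKM. Since each value is a whole multiple of what 1 read is worth, the reads and the length could be worked back. For Taf4b the length was 5149 bp, that of its principal transcript. This is the shortest transcript that the annotation tags as principal. Genes without such a tag took the first listed coding transcript, or else the first listed transcript. For Taf4 it was 676 bp, the length of a non-coding processed transcript of 6 exons (179922004 to 179929355), 621 bases of which lie in exons of the 4416 bp principal transcript. In reads, Taf4b had 6089 and Taf4 1392 over all columns. Per length of the principal transcript, Taf4 had 1.42, 1.76, 1.93 and 1.55 RPKM in replicates 1 to 4, against 6.02, 6.82, 6.51 and 5.52 RPKM for Taf4b. Taf4b was then higher in 4 of 4 libraries, 3.38 to 4.23 times Taf4, with a difference of 1.84 ± 0.13 (log2 scale, SD, n = 4; exact sign-flip test, p = 0.125). With the length of all annotated exons, 5149 bp for Taf4b and 4621 bp for Taf4, it was 1.90 ± 0.13.

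Whether reads of Taf4 were counted over the whole gene or only over the short transcript is not given in the sources used here. Across protein-coding genes, the 864 genes whose length in the RPKM was under 0.25 of the principal length had a median of 23.4 RPKM as deposited and 3.18 RPKM per principal length. For the 11961 genes in which both lengths were close (ratio 0.9 to 1.1), the medians were 2.57 and 2.57 RPKM. Among the 10 subunits Taf4 was in the first of these classes and Tbp, at a ratio of 0.362, was the other gene with a ratio under 0.9.

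**Figure D1:**
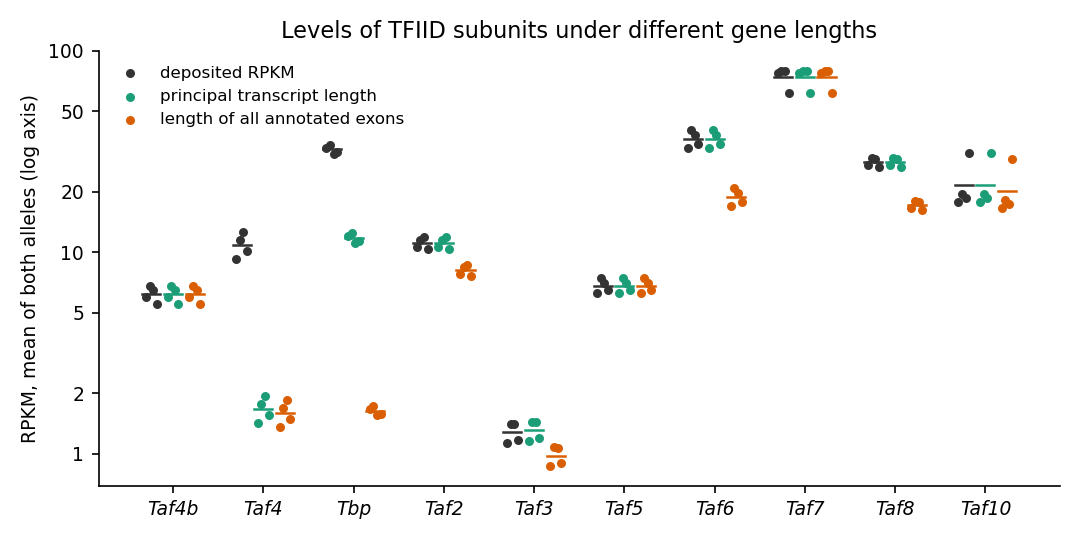
RPKM (log axis, mean of both alleles) of each subunit gene with the deposited length, the length of the principal transcript and the length of all annotated exons. Points are the 4 libraries and lines their means. Taf4 falls from 10.9 to 1.67 RPKM with the principal length, below Taf4b at 6.21, and Tbp falls from 32.4 to 11.7.

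Tbp (ENSMUSG00000014767; chromosome 17, 15499888 to 15528379, plus strand), which encodes the TATA-binding subunit, had 33.9, 36.5, 31.0 and 31.2 RPKM on the S129 allele and 32.2, 32.0, 30.7 and 31.4 RPKM on the CAST allele. Its mean of 32.4 ± 1.6 RPKM (SD, n = 4) rests on the 685 bp of a coding transcript of 4 exons. Per length of the principal transcript of 1891 bp the level was 11.7 ± 0.6 RPKM, and per the 13576 bp of all annotated exons 1.63 ± 0.08 RPKM. The gene Pdcd2 on the other strand overlaps Tbp and had 2.16 ± 0.33 RPKM. Ap4m1 overlaps Taf6 in the same way and had 3.30 ± 0.18 RPKM. Taf3, Taf4, Taf5, Taf7 and Taf10 also share bases with genes of the other strand. On the same strand, the processed pseudogene AC133172.1 overlaps Taf4b and has no values here. The paper names a stranded library kit, but whether the counting used strand is not given in the sources used here.

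Taf7 (ENSMUSG00000051316; chromosome 18, 37640491 to 37644204, minus strand), the gene of the subunit that binds TAF1, had the highest level of the members on each length. Its level was 77.3, 79.1, 79.6 and 61.4 RPKM in replicates 1 to 4, with replicate 4 below the others. Taf6 (ENSMUSG00000036980; chromosome 5, 138178617 to 138187451, minus strand), a histone-fold core subunit, had 33.1, 40.6, 38.2 and 34.6 RPKM, and Taf5 (ENSMUSG00000025049; chromosome 19, 47067746 to 47083479, plus strand), the WD40 repeat subunit, had 6.29, 7.42, 7.07 and 6.47 RPKM. Taf6 and Taf5 thus stood on different levels as deposited, at 36.6 ± 3.4 and 6.81 ± 0.53 RPKM (SD, n = 4). Per length of all annotated exons Taf6 had 18.8 ± 1.8 RPKM and Taf5 6.81 ± 0.53 RPKM. The number of SNPs in each transcript was not corrected for.

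In the group that joins the complex together, Taf8 (ENSMUSG00000023980; chromosome 17, 47483364 to 47502292, minus strand) had 27.1, 29.4, 28.9 and 26.6 RPKM. Taf10 (ENSMUSG00000043866; chromosome 7, 105739393 to 105744361, minus strand) had 17.7, 19.4, 18.5 and 31.0 RPKM, with replicate 4 far above the others. Taf2 (ENSMUSG00000037343; chromosome 15, 55015131 to 55072152, minus strand) had 10.6, 11.6, 11.9 and 10.4 RPKM. Only 654 of the 4281 bases of the Taf10 transcript are coding, and the annotation holds no other coding transcript of this gene. Taf3 (ENSMUSG00000025782; chromosome 2, 9914552 to 10048596, minus strand), the histone reader, was the lowest of the members at 1.13, 1.40, 1.40 and 1.17 RPKM, with 92 to 184 reads behind each allele value.

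**Figure D2:**
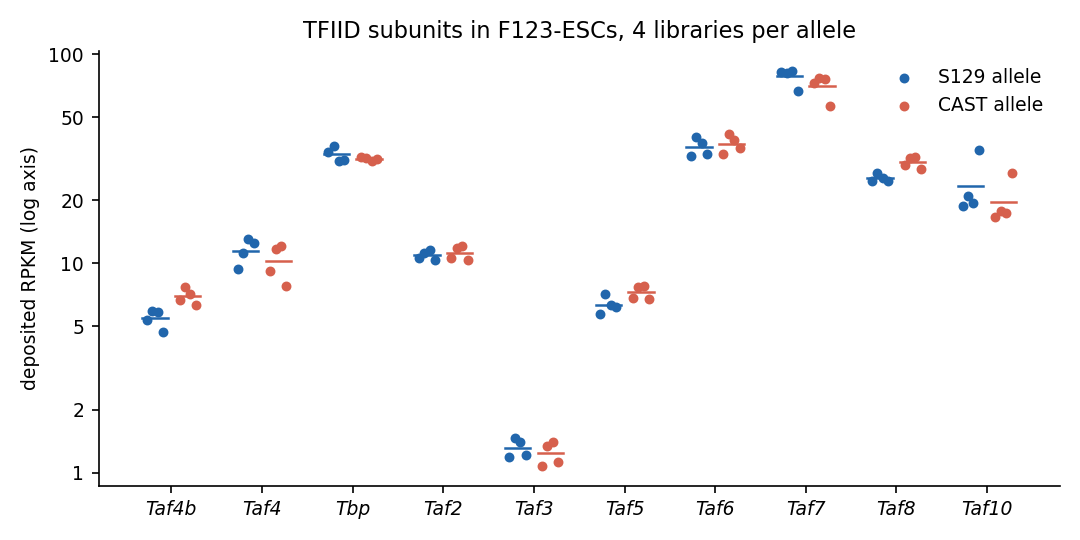
Deposited RPKM (log axis) of the 10 subunit genes on the S129 and the CAST allele. Points are the 4 libraries and lines their means. Levels run from 1.28 RPKM for Taf3 to 74.3 RPKM for Taf7, and the alleles lie apart for Taf4b and Taf8.

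Ordered by deposited level, the genes ran Taf7, Taf6, Tbp, Taf8, Taf10, Taf2, Taf4, Taf5, Taf4b and Taf3. The library values of neighbours overlapped in 4 of the 9 pairs, namely Taf6 and Tbp, Taf8 and Taf10, Taf2 and Taf4, and Taf5 and Taf4b. No pair could reach 0.05, and the smallest adjusted p was 0.188 (exact sign-flip permutation tests, adjusted over the 9 pairs). Taf5 was above Taf4b in 4 of 4 libraries by 0.13 ± 0.07 (log2 scale, SD, n = 4) although their values overlapped, and Taf2 was above Taf4 in 3 of 4 by 0.04 ± 0.11. Per principal length the order was Taf7, Taf6, Taf8, Taf10, Tbp, Taf2, Taf5, Taf4b, Taf4 and Taf3. On this scale Taf4b stood apart from Taf4 and next to Taf5, while Taf4 at 1.67 ± 0.22 RPKM overlapped Taf3 at 1.31 ± 0.15 RPKM (SD, n = 4). With the length of all annotated exons Tbp moved between Taf4b and Taf4.

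Promoter sequences were matched for 7 of the 10 genes in RefSeq (GRCm38.p6), which gives the reference strain and not S129 or CAST. The 250 bases before the start are shown for Taf4, for Taf8 and Taf5, which were higher on the CAST allele, and for Taf10, which was higher on the S129 allele. They run 5′ to 3′ on the strand of the gene. Capitals mark the TATA box, the CCAAT box and the GC box, searched on both strands by the letters given with each result.
Taf4, chr2:179976647-179976896, strand -: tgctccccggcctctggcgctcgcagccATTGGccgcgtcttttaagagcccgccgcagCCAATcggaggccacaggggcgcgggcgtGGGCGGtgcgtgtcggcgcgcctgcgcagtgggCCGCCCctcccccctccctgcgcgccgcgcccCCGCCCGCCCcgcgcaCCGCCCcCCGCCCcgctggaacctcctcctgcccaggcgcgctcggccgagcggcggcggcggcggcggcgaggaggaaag
Taf8, chr17:47502292-47502541, strand -: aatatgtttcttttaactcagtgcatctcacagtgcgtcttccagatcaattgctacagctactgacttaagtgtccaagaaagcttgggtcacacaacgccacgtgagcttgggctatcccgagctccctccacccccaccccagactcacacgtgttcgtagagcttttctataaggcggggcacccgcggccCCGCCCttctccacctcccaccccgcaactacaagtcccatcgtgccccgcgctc
Taf5, chr19:47067498-47067747, strand +: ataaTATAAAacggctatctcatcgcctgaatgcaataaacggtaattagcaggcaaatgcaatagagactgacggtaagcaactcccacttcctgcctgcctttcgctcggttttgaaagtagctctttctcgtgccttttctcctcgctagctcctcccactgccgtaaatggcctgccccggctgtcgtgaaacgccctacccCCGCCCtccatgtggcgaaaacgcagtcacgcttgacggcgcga
Taf10, chr7:105744339-105744588, strand -: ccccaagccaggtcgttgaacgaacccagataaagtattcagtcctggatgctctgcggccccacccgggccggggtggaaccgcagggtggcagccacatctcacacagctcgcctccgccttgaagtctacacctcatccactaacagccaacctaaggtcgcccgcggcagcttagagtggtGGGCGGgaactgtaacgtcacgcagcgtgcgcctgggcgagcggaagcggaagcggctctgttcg
The Taf4 window held 6 matches to GGGCGG, which binds Sp1-type factors, and 2 to CCAAT, the NF-Y motif, with 80.4% G and C where the median of 32851 promoters was 52.4%. GGGCGG was found before Taf3, Taf4, Taf5, Taf8, Taf10 and Tbp, and in 32.7% of all promoters. CCAAT was found before Taf4 alone among these genes and in 33.8% of all promoters. TATAAA was found before Taf5 and before 1 of the 2 Taf6 starts, and in 12.4% of all promoters. A match is a description of letters and not a site.

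Between the alleles, 5 of the 10 genes differed at an adjusted p under 0.05, against a background of 62.7% of the 13341 genes tested (limma on S129 minus CAST within each library, log2(RPKM+0.1), Benjamini-Hochberg adjustment over all genes). Taf4b, Taf8 and Taf5 were higher on CAST, as were 32.5% of autosomal genes, and Taf10 and Taf7 were higher on S129, as were 28.9%. The deposited values are scaled to all reads of a column, X-linked ones included. With the columns rescaled to equal autosomal sums, autosomal calls moved from 3721 on S129 and 4180 on CAST to 4654 and 3071, and the calls of members from 2 and 3 to 4 and 2. With the reads divided by autosomal reads alone, autosomal calls were 4144 on S129 and 3683 on CAST. The calls of members were then 3 and 3. The median size of the difference was 0.17 over the subunit genes and 0.29 over autosomal genes (log2 scale). Taf4b and Taf7 lie on chromosome 18 and Taf5 on chromosome 19, and these 3 genes did not share a direction. The paper lists both chromosomes among those that generally carry rRNA genes in the mouse, depending on strain. A link between rRNA genes and the allele differences was not tested.

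Taf4b had the largest difference among the members on CAST. Its values of S129 minus CAST were -0.32, -0.36, -0.28 and -0.42 in replicates 1 to 4, all on the same side, with a mean of -0.35 (SE 0.04, adjusted p = 0.0018 by limma), or 1.27-fold higher on CAST. The share of reads from S129 was 45.0% (exact 95% binomial interval 43.8% to 46.3%). This share pools the reads of the 4 libraries and is not scaled to the column totals. Its interval covers counting error only. Taf4b was called under each of the 13 other settings tried, from -0.37 to -0.24, and the median difference of chromosome 18 was 0.01. Taf4 was not called. It had 0.02, -0.07, 0.10 and 0.68, a mean of 0.18 (SE 0.14, adjusted p = 0.32 by limma), with replicate 4 far from the rest, and without that library the mean was 0.02. The difference of Taf4b less that of Taf4 was -0.53 ± 0.38 (SD, n = 4), negative in 4 of 4 libraries (exact sign-flip test, p = 0.125), and -0.34 without replicate 4.

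Taf8 had 24.8, 27.0, 25.6 and 24.8 RPKM on S129 and 29.5, 31.7, 32.2 and 28.3 RPKM on CAST, with every CAST value above every S129 value. The mean difference was -0.25 (SE 0.04, adjusted p = 0.0050 by limma), and it was called under each of the 13 other settings. Taf10, its partner, differed the other way, with 18.7, 20.9, 19.5 and 34.96 RPKM on S129 and 16.6, 17.7, 17.5 and 27.0 RPKM on CAST. The groups overlapped, but S129 was higher within each of the 4 libraries. Its mean difference was 0.24 (SE 0.05, adjusted p = 0.014 by limma). The fit that ignores which library a value came from gave adjusted p = 0.43, and without replicate 2 it was 0.057. Taf5 was at -0.21 (SE 0.05, adjusted p = 0.020 by limma), higher on CAST in 4 of 4 libraries, and Taf7 at 0.16 (SE 0.04, adjusted p = 0.021 by limma), higher on S129 in 4 of 4. Both calls were lost under 5 of the 13 other settings. For Taf5 these were the fit without pairing (adjusted p = 0.097 by limma), equal autosomal sums (0.10), the chromosome median of -0.07 subtracted (0.065), and the fits without replicate 1 (0.077) or 3 (0.070). For Taf7 they were the fit without pairing (adjusted p = 0.32 by limma), no filter on level (0.051), and the fits without replicate 1 (0.076), 3 (0.071) or 4 (0.051).

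**Figure D3:**
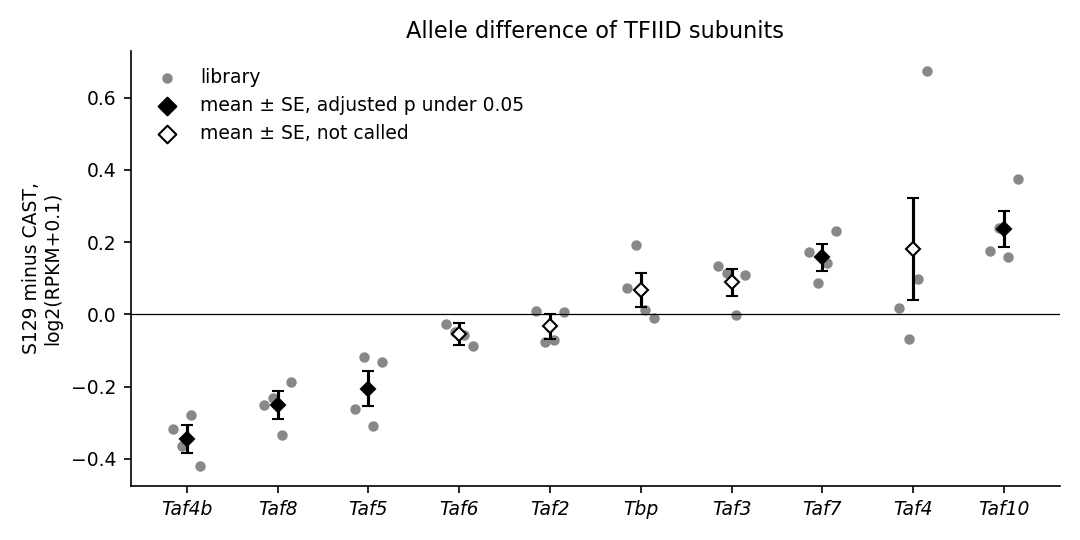
Difference between the alleles of each subunit gene, S129 minus CAST in log2(RPKM+0.1). Grey points are the 4 libraries and diamonds the mean with its SE, filled where the adjusted p was under 0.05. Taf4b lies lowest at -0.35 and Taf10 highest at 0.24, and Taf4 has the widest spread with replicate 4 at 0.68.

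The other 5 genes were not called. Tbp was at 0.07 (SE 0.05), Taf3 at 0.09 (SE 0.04), Taf6 at -0.05 (SE 0.03) and Taf2 at -0.03 (SE 0.03), each with an adjusted p by limma between 0.11 and 0.44. Taf6 had -0.03, -0.05, -0.06 and -0.09 in replicates 1 to 4, but 0.05 as a mean with equal autosomal sums, and Taf2 also changed sign there, to 0.07. When allele columns were rescaled to equal autosomal sums, all tested genes shifted by a median of 0.10 toward S129, and Tbp and Taf3 became called (adjusted p = 0.044 and 0.019 by limma). The autosomal sums hold structural RNAs such as Rnu3a, which had a mean of 58968 RPKM on CAST and 1574 RPKM on S129. Divided by autosomal reads alone, which leaves out X-linked reads, tested genes shifted by a median of 0.045 toward S129. Taf3 was called there too (adjusted p = 0.037 by limma).

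The protein-coding genes around Taf4b on chromosome 18 differed among themselves. Psma8, a proteasome subunit gene used in testis, lies just before Taf4b and had 14.8 ± 1.0 RPKM on S129 and 1.94 ± 0.25 RPKM on CAST (SD, n = 4), a difference of 2.87 (SE 0.11, adjusted p = 7.5e-05 by limma). Ss18, the gene before it, had 48.5 ± 5.3 RPKM and was also higher on S129, by 0.19 (SE 0.04, adjusted p = 0.012 by limma). Both neighbours on this side thus differed in the direction opposite to Taf4b. Kctd1 on the other side had 1.43 ± 0.26 RPKM with -0.06 (SE 0.04, adjusted p = 0.27 by limma). The outer neighbours Zfp521, Aqp4 and Chst9 were at 0.289, 0.0060 and 0.0055 RPKM, too low for the test.

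The 3 genes of at least 1 RPKM whose 8 allele values, less their mean, lay nearest to those of Taf4b were Nrep, Mapk14 and Kpna6, with root mean square distances of 0.029, 0.034 and 0.035 on the log2 scale over 11945 genes. They were at 37.8, 55.1 and 6.12 RPKM and had S129 minus CAST at -0.32, -0.36 and -0.34. These differences follow from the way the genes were chosen and are given as a description. The points of such a profile share the 4 libraries and their depth.

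The library of replicate 4 stood apart for Taf10 and Taf7. Taf10 was 0.74 above the mean of the other libraries (log2 scale), or 1.67-fold, and only 71 of 11946 genes of at least 1 RPKM were as high. It was high on both alleles, with 34.96 RPKM against 18.7 to 20.9 on S129, and 27.0 against 16.6 to 17.7 on CAST. Taf7 was at -0.36 against the other libraries, and 1074 genes were as low. The other 8 subunit genes lay between -0.22 and -0.06, where the median of all genes was -0.13. In replicate 4, 145 genes were over 1.5-fold above and 185 as far below, against 61 to 89 and 55 to 64 in the others. Genes with a principal transcript of up to 1194 bp were at a median of 0.13 in this library and longer genes at -0.15. By its annotated principal transcript of 4281 bp Taf10 counts among the longer genes. Only 654 of these bases are coding, and the length of the RNA present was not measured. Ilk, which overlaps Taf10 on the other strand, had 15.9, 18.0, 15.8 and 17.9 RPKM. The part of depth and of transcript length in the Taf10 value was not tested. Without replicate 4 Taf10 had a mean of 18.5 RPKM and was still called higher on S129 (adjusted p = 0.022 by limma), while Taf7 was not (adjusted p = 0.051). Leaving out any of the 4 libraries brought the count of members higher on S129 from 2 to 1.

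**Figure D4:**
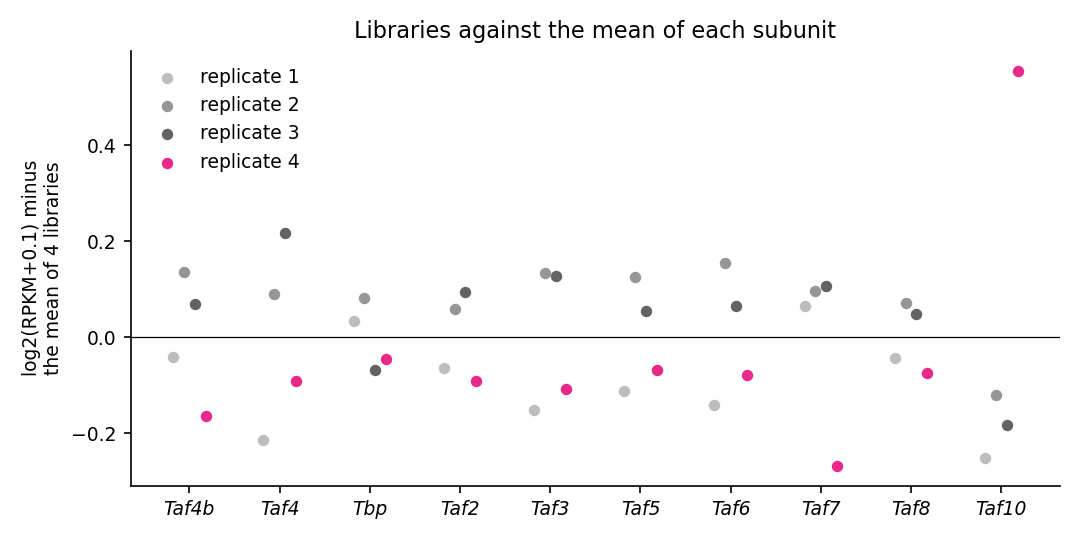
Difference of each library from the mean of the 4 libraries for each subunit gene, in log2(RPKM+0.1) of the mean of both alleles. Replicate 4 lies far above the others for Taf10, where it had 31.0 RPKM against 17.7 to 19.4, and lowest for Taf7.

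The remaining TFIID subunits complete the complex. Taf9, a core histone-fold gene, had 175 ± 8 RPKM (SD, n = 4) on a length of 794 bp and 113 ± 5 RPKM per principal length. It overlaps Ak6, and Taf11 overlaps Anks1. Taf13 had 99.2 ± 8.3 RPKM as deposited and 24.2 ± 2.0 RPKM per principal length, Taf11 24.0 ± 2.2 and 43.3 ± 3.9 RPKM, and Taf12 9.63 ± 0.48 RPKM on both. Taf1, the largest subunit gene by protein, lies on the X chromosome and was read from S129 as 3.34 ± 0.72 RPKM, with 1 read on CAST in this male line. Of the 4 autosomal genes Taf11 was higher on S129, by 0.63 (SE 0.04, adjusted p = 0.00038 by limma), and Taf13 on CAST, by -0.66 (SE 0.03, adjusted p = 0.00017 by limma). The median difference of chromosome 3, where Taf13 lies, was -0.72. Taf9 at 0.04 and Taf12 at -0.10 were not called.

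Among paralogues, Taf7l, which is used in germ cells and in place of Taf7, had 7.69 ± 1.27 RPKM on S129 and 0 reads on CAST, and Taf9b 4.88 ± 0.26 RPKM on S129 with 1 read on CAST. Both are X-linked. On the same allele Taf7 had 78.3 ± 8.1 RPKM. Tbpl1, a TBP relative needed in spermatids, had 3.12 ± 0.60 RPKM, without an allele call (-0.06, SE 0.07, adjusted p = 0.47 by limma). Tbpl2, the TBP relative of oocytes, was listed at 0 in all columns, and Taf7l2 is not analysed here.

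SAGA is a coactivator complex that shares TAF10 and other subunits with TFIID. Of 16 autosomal SAGA genes 3 were higher on S129 and 5 on CAST, where 28.9% and 32.5% of autosomal genes were, with a median difference of -0.03. By deposited level its extremes were Eny2 at 230 RPKM and Tada2b at 1.54 RPKM. Per principal length Eny2 had 58.8 RPKM, below Supt20 at 61.1 RPKM, and Sgf29 at 0.94 RPKM was below Tada2b. The largest allele differences were those of Sgf29 (0.63, SE 0.19) and Supt20 (-0.75, SE 0.04, on chromosome 3). Sgf29 had only 13 to 46 reads in a column and an adjusted p of 0.046 by limma. Its library values ran from 0.16 to 1.06. Of 17 other general transcription factor genes 4 were higher on S129 and 11 on CAST, against the same shares of autosomal genes, with a median of -0.19. Over these lists, the TBP regulators, the other TFIID subunits and the paralogues together, the count on CAST was 17, but 11 with equal autosomal sums and 9 in the fit without pairing, and that on S129 was 9, but 4 without pairing. By deposited level Gtf2h3 was the highest at 257 RPKM and Ercc2 the lowest at 5.83 RPKM. Per principal length Gtf2h3 had 59.6 RPKM and Gtf2h5 was the highest at 140 RPKM. The largest differences were Gtf2e1 at 0.83 (SE 0.03), on chromosome 16 with its median of 0.68, and Gtf2b at -0.74 (SE 0.05), on chromosome 3. Of the 3 TBP regulators Drap1 had 147 RPKM and was higher on S129 by 0.43 (SE 0.04, adjusted p = 0.0012 by limma), and Dr1 had the lowest level, 13.7 RPKM, with no call. The median over all autosomal genes was -0.02.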

How the data were processed

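PolyA RNA of 4 F123-ESC libraries was sequenced by the authors as paired reads of 150 bp, trimmed with Trimmomatic 0.40, aligned with STAR to an mm10 genome masked at SNPs and assigned to alleles with SNPsplit. The labels also name FastQC, and the paper a filter of ribosomal RNA reads with SortMeRNA before trimming and a stranded mRNA library kit. For each gene and allele the authors deposited RPKM. The counter and annotation are not given in the sources used here. The authors' averages over libraries and log10 columns were not used. Members and lists were chosen with earlier results of these data known, and the named genes follow a fixed rule: all members, the other TFIID genes and paralogues, the extremes of the remaining lists, 3 neighbours on either side of Taf4b and the 3 most like genes.

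Genes were matched to GENCODE M21 (23995 of 24026). Column totals, gene lengths and whole reads were worked back from the RPKM, and 99.5% of genes above 0 came out whole within 0.02 reads. For Taf5 and Taf8 the length was found by search, and multiples of that length cannot be told apart from it. Allele differences were fitted with limma 3.58.1 in R 4.3.3 on log2(RPKM+0.1) of S129 minus CAST in each library. Genes with a summed mean of at least 1 RPKM were taken, adjusted by Benjamini-Hochberg at 0.05. The fit was also run on simulated data in which most genes were equal between the alleles. In the real data 62.7% of genes were called, so no conclusion is drawn from the simulation. Both allele values of a library come from the same RNA. Over 12874 genes not assigned to the X chromosome, the deviations of same-numbered columns correlated at 0.11 to 0.20. Those of different numbers correlated at -0.16 to 0.15. Levels were compared with two-sided exact sign-flip permutation tests over the 4 libraries in Python 3.11.15. A pseudocount makes folds of low genes smaller. Settings tried were other pseudocounts and filters, no pairing, other scalings, chromosome medians, a variance trend, other lengths and leaving out each library.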

Additional observations from a re-analysis of the deposited data

Results flagged for a closer look

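A library stood far from the other 3 in 2 of the 20 quantities examined, the level and the allele difference of each of the 10 genes, by the gap to the nearest library over the whole range (Dixon's 95% value); chance gives about 1 in 20. The Taf10 level of replicate 4 was 31.0 RPKM, where the others lay between 17.7 and 19.4 RPKM. The Taf7 level of replicate 4 was 61.4 RPKM, where the others lay between 77.3 and 79.6 RPKM. The cause was not tested.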

How the results depend on the processing

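Taf4b against Taf4 reversed from -0.79 to 1.84 (log2) with the principal transcript length, chosen after the data were seen, and to 1.90 with the length of all annotated exons, as the alternatives replace the length of 676 bp; with other pseudocounts or single alleles it kept its direction. The number of members higher on S129, 2, was 1 with no filter, 0 with no replicate block and 4 rescaled to one autosomal sum. It was 3 divided by autosomal reads and 1 without each replicate in turn. Genes of the other lists higher on S129, 9, were 4 with no replicate block, and those higher on CAST, 17, were 9 with no block and 11 when rescaled. Taf2 changed sign when rescaled (0.0687), with the chromosome median subtracted (0.0017) and with autosomal reads (0.0121), and Taf6 when rescaled (0.0479). Over the fits of single members under other settings, 110 kept direction and call, 12 lost the call, 3 gained it and 4 changed sign. The alternative with autosomal reads was also chosen after the data were seen. Depth limits Taf4 and Taf3 most, with as few as 88 and 92 reads in a column. The pairing of alleles by library changed calls of Taf5, Taf7 and Taf10 only, among the members.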
